A study of Mus musculus with 80 samples.

Results

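Oxidative phosphorylation is the process by which mitochondria make ATP. Complexes I and II pass electrons from NADH and succinate to coenzyme Q, complex III passes them to cytochrome c, and complex IV passes them to oxygen, while complex V, the ATP synthase, uses the proton gradient that the chain builds. Liver cells are rich in mitochondria, and most subunits of these complexes are encoded in the nucleus, with a few encoded by mitochondrial DNA. The members described here were the entries of the deposited array table whose symbol began with Nduf (complex I), Uqcr (III), Atp5 (V) or Cox followed by a digit from 4 to 8 (IV), or was that of a succinate dehydrogenase subunit (II). The symbols gave 77 of 18138 entries, and 70 of them, of 11352 genes tested, had a detection p under 0.05 on at least 4 of the 80 arrays. Of the 70, 33 belonged to complex I, 3 to complex II, 5 to complex III, 12 to complex IV and 13 to complex V. The other 4 share a prefix without being subunits, namely the assembly factor Ndufaf1, the related genes Atp5s and Atp5sl described below, and Cox4nb, which belongs to a complex of the endoplasmic reticulum. The 7 members not tested were Atp5k, Cox4i2, Cox7b2, Cox8b, Cox8c, Ndufs1 and Uqcrq, each at background with a median intensity between 95.4 and 100.4. Sdha and the 13 subunits encoded by mitochondrial DNA were not analysed here.

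Livers came from male mice of the hybrid strain B6C3F1, whose age the labels do not give. Ethinyl estradiol (EE2), a synthetic estrogen, was mixed into the feed at 10, 5, 2.5 or 1 ppm and prednisone (PRED), a glucocorticoid prodrug, at 25, 5, 2.5 or 1.25 ppm, both for 7 d, with 6 arrays of feed controls. Androstenedione (A4), a steroid hormone precursor, was gavaged at 2, 10, 20 or 50 mg/kg/day in carboxymethyl cellulose for 7 d, with 4 arrays of gavage controls. For the highest dose of all 3 compounds there was also a 28 d treatment, with 6 feed and 4 gavage control arrays of that duration, and every treated group had 4 arrays. Nothing in the labels says that the arrays came from separate animals, so each p-value is set against array-to-array spread that could be technical alone. In whole liver, fewer cells of a type and less RNA per cell cannot be told apart. Of 6 hepatocyte markers, Ttr, Apoa1, Cps1 and Serpina1a were detected on all 80 arrays, Alb on 47 at a median intensity of 111.1 and Tat on 23. Between 7743 and 9328 entries were detected per array.

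Values are normalized intensities, where the median entry of an array lay at 105.7 to 106.4, close to background, and changes are on the scale log2(intensity + 16). At 7 d of EE2, the members' median change lay further below 0 at each higher dose, at -0.01, -0.15, -0.28 and -0.50. Against the mean of the 4 control groups, an alternative chosen after seeing the data, these medians were 0.13, -0.01, -0.17 and -0.39. At 1, 2.5 and 5 ppm for 7 d and at 10 ppm for 28 d, 1.43%, 1.43%, 11.4% and 10% of the members fell. Of all genes tested, 7.06%, 7.02%, 11.6% and 13.8% fell in these groups, so the members' share was not above it. PRED and A4 changed few members or 0. With EE2 at 10 ppm for 7 d, 33 of 70 members fell, where 15.2% of all genes tested did, and 1 rose, where 18.1% did, with a median change of -0.50 (log2) against -0.0014 over all genes tested. Cox7a1, the heart and muscle isoform of a complex IV subunit, fell and Atp5s rose in all 5 EE2 groups. Over the 15 comparisons of a treated group with its control, 38 members passed an adjusted p of 0.05 at least once, 36 of them with EE2, and the other 32 never did. The share of all genes called at least once was not computed, and EE2 at 10 ppm for 7 d alone called 33.3% of them, so this count shows no excess.

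Promoter windows from RefSeq, on the build GRCm38.p6, were matched for 60 of the 70 members. Each window holds 250 bases before a transcription start and 50 after it. NRF1 is a transcription factor known to bind promoters of respiratory chain genes, and its motif GCGCATGCG, searched on both strands, was found in 6 members, 10% of those with a window, against 1.95% of all 27025 genes with one. The promoters of the 4 that changed in a comparison below are printed with the matched bases in capitals, next to that of Cox7a1, the member lowered in every EE2 group, which matched 0 of the 7 motifs searched. Where both strands matched at overlapping positions, the capitals run 1 base longer. The match began 42 bases before the start in Atp5g2, 162 before it in Cox6a1, 5 before it in Uqcr and 30 after it in Uqcrc1. The windows are chr15:102670998-102671297 (minus strand) for Atp5g2, chr5:115348909-115349208 (minus) for Cox6a1, chr10:80406772-80407071 (minus) for Uqcr, chr9:108936398-108936697 (plus) for Uqcrc1 and chr7:30183921-30184220 (plus) for Cox7a1.
Atp5g2: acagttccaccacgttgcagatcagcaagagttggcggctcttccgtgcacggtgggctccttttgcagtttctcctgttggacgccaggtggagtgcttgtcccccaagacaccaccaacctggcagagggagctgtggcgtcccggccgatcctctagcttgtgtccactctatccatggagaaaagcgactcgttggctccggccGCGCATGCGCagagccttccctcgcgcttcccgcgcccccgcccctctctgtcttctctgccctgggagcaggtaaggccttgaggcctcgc
Cox6a1: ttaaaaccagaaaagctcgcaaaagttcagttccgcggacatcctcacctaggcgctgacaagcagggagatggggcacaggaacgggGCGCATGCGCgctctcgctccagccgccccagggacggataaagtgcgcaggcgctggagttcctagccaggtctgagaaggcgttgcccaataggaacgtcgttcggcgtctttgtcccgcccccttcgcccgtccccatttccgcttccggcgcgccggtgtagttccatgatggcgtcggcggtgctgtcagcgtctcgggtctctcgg
Uqcr: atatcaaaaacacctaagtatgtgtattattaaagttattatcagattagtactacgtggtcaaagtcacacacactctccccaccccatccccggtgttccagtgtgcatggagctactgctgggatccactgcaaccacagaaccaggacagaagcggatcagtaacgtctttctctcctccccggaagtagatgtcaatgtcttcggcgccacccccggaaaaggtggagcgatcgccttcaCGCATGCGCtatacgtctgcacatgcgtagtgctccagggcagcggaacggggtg
Uqcrc1: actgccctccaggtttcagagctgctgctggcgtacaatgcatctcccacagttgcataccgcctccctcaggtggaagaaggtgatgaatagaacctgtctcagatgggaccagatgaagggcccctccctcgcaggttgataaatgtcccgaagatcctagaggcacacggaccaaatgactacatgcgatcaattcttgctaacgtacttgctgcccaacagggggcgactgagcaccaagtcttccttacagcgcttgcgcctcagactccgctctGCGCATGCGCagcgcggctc
Cox7a1: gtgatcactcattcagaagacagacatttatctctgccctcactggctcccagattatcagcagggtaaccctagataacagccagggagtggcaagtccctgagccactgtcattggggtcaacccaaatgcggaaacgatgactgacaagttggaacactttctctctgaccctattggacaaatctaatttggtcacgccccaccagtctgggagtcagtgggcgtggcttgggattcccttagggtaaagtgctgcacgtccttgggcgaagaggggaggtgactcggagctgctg

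A looser form of the NRF1 motif with 1 free base, GCGCNTGCG, which includes the motif above, matched 19 of the 60 members (31.7%) against 7.12% of all genes, again on both strands. The YY1 motif AAGATGGCG matched 8 members (13.3% against 1.64%), the ETS motif CCGGAAGT 4 members, Atp5h, Ndufs3, Uqcr and Uqcrh (6.67% against 4.31%), and the ERR alpha motif TCAAGGTCA 2 members, Atp5g3 and Sdhd (2 members against 126 of all genes). An estrogen response element, GGTCANNNTGACC, and a glucocorticoid response element, ACANNNTGTTC, matched 0 members, against 0.074% and 1.12% of all genes. The members' windows had a median GC content of 58% against 52.7% for all windows, and these matches are descriptions of the letters only.

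EE2 at 10 ppm for 7 d was compared with the feed controls of that duration. The direction was shared more widely than the calls, with 66 of 70 members below 0, where 50.5% of all genes were. Such a one-sided count also arose between controls. In 28-day minus 7-day feed controls 56 of 70 lay below 0, with 0 called. Every EE2 array lay below every control array for 11 members, against 9.61% of all genes. The array means of the 70 members, on the log2 scale, were 9.79, 10.00, 10.02 and 10.56 with EE2 and ran from 10.28 to 10.73 in the controls, with a median of 10.61. A single EE2 array lay within the control range and the other 3 lay below it.

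**Figure D1:**
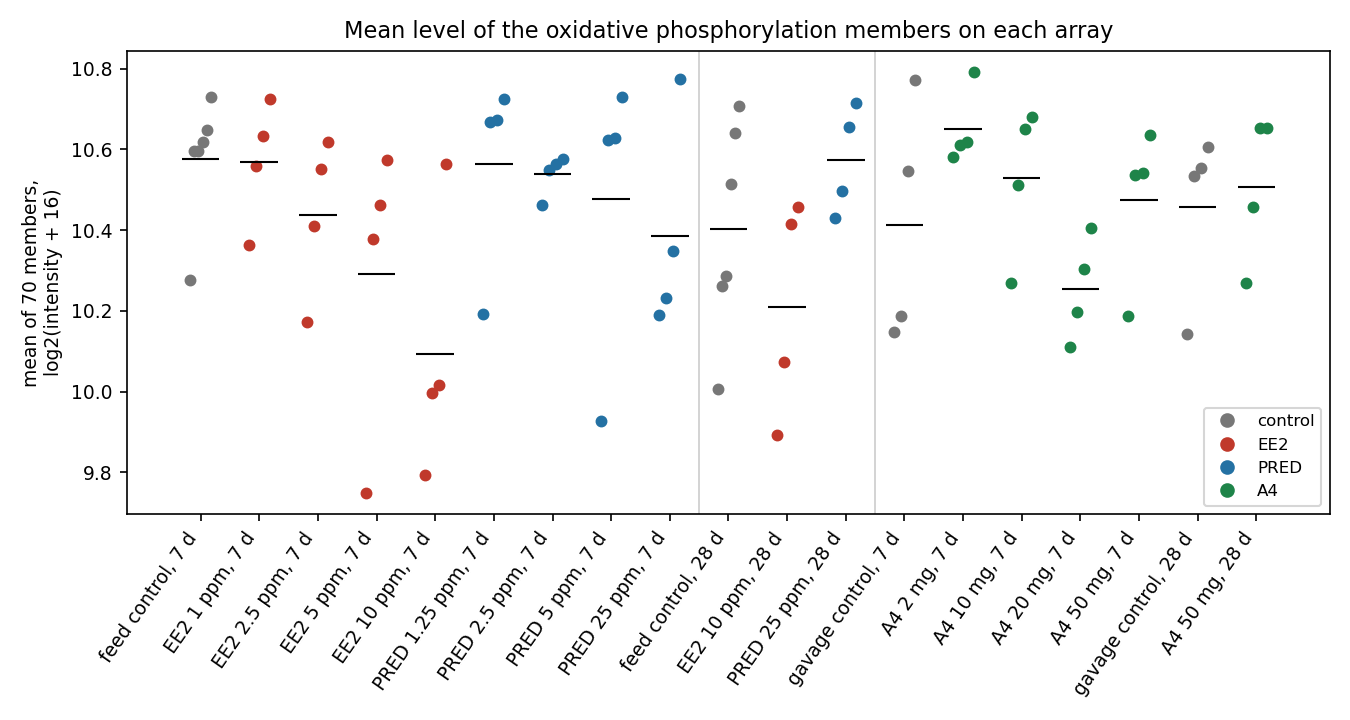
Mean of the 70 members on each array, in log2(intensity + 16), by group; each point is 1 array and each bar the group mean. With EE2 at 10 ppm for 7 d, 3 arrays lay below the lowest 7-day feed control at 10.28 and 1 lay at 10.56.

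The count of 34 calls rested partly on single arrays. Without EE2 replicate 4, the array with the lowest mean, 17 members were called, and without replicate 2, the array with the highest, 47. On chips that held both groups, 1 array could be compared with 1. On 1 such chip the members' median change was -0.56, with all 34 called members in the same direction, and on another, which carried replicate 2, it was -0.05, with 26 of 34 in that direction. With the chip as a block in the fit, 37 fell and 1 rose. The number of entries detected also moved with the members, being 8406 to 9260 on the EE2 arrays and 8143 to 8331 on the controls. With that number as a covariate, an alternative chosen after seeing the data, 6 members fell, among them Atp5c1, Atp5sl, Cox7a1, Ndufa10 and Ndufa9, and Atp5s was the 1 that rose. In that fit 10.1% of all genes fell and 11.2% rose, so the members' share of falls was below that of all genes. The number of entries detected was itself higher on every EE2 array than on every control, so this fit cannot separate it from the treatment.

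Complex I, the largest complex, accepts electrons from NADH. With EE2 at 10 ppm for 7 d, 18 of its 33 tested members fell, where 15.2% of all genes did. Their median change was -0.60 (log2), and all 33 lay below 0. Ndufa3, a small accessory subunit, had intensities of 1175, 1504, 1947 and 3241 with EE2, against a lowest of 2641, a median of 3975 and a highest of 4467 in the controls. It fell by 1.04 (SE 0.34, adjusted p = 0.0134), the largest change of this comparison among the members, with 1 EE2 array inside the control range. That call was lost without EE2 replicate 4, with the number of entries detected as a covariate, and against the mean of the 4 control groups.

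Ndufb7, an accessory subunit of the membrane arm (chr8:83566758-83571623 on GRCm38.p6), had intensities of 150.1, 179.3, 190.0 and 332.7 with EE2 and 334.6 to 478.7 in the controls, with a median of 390.8. It fell by 0.90 (SE 0.23, adjusted p = 0.00167) with no overlap. Ndufa12, an accessory subunit, was at 868.7, 1127, 1360 and 2683 with EE2 and at 2185 to 3196 in the controls, with a median of 2515, and fell by 0.88 (SE 0.27, adjusted p = 0.00806). Its highest EE2 array lay within the control range, and without EE2 replicate 4 the call was lost.

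Core subunits, which are conserved from bacteria, carry the iron-sulfur clusters and bind the quinone. Ndufs8, which holds iron-sulfur clusters, had intensities of 1375, 1646, 2103 and 2298 with EE2, below every control (2665 to 3219, median 2910), and fell by 0.68 (SE 0.15, adjusted p = 0.000261). Its EE2 arrays lay wholly below the controls. Ndufs3 (-0.52) and Ndufs7 (-0.56), also core subunits, fell, as did Ndufv2 (-0.47), which holds an iron-sulfur cluster near the NADH site, while the NADH-binding Ndufv1 was at -0.18 and was not called. Ndufab1, the mitochondrial acyl carrier protein, was at -0.04.

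Ndufa9, at the junction of the arms of complex I (chr6:126821863-126849144), was at 2411, 2940, 3230 and 3595 with EE2 at 10 ppm for 7 d and at 3967 to 4772 in the controls, with a median of 4252. The groups did not overlap, and the change of -0.50 (SE 0.09) had an adjusted p of 2.19e-05. Ndufa10, a kinase-like subunit, lay at 3028, 3096, 3518 and 3960 against 4203 to 5653 (median 4425), again without overlap, and fell by 0.44 (SE 0.12, adjusted p = 0.00235). Ndufa4, grouped here by its name although its protein is now assigned to complex IV, fell by 0.63 (SE 0.19, adjusted p = 0.00887) with 1 EE2 array within the control range.

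Complex II, succinate dehydrogenase, links the citric acid cycle to the chain. Sdhb, its iron-sulfur subunit, had intensities of 371.6, 404.0, 427.8 and 749.5 with EE2 at 10 ppm for 7 d and of 530.2 to 1000.0 in the controls, with a median of 883.9. It fell by 0.76 (SE 0.25, adjusted p = 0.0156), with 1 EE2 array inside the control range. Sdhc, a membrane anchor, was at 913.0, 988.8, 1159 and 1450 against 1388 to 1839 (median 1554), and fell by 0.49 (SE 0.10, adjusted p = 0.000127), with the highest EE2 array above the lowest control. Its detection p was 0.05 or more on 65 of 80 arrays although all its intensities lay far above background, so detection did not follow the signal for Sdhc. Sdhd, the other membrane anchor, changed by -0.07 (SE 0.26, adjusted p = 0.855) between overlapping groups.

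Complex III, the cytochrome bc1 complex, had 1 of 5 tested members that fell at 10 ppm and 7 d, where 15.2% of all genes did. Uqcr, its smallest subunit, was at 2561, 3074, 3571 and 5914 with EE2 and at 4429 to 7904 in the controls, with a median of 6877. It fell by 0.89 (SE 0.28, adjusted p = 0.0104), with 1 EE2 array inside the control range, and that call was lost without EE2 replicate 4. The core proteins Uqcrc1 and Uqcrc2 changed by -0.23 (SE 0.15) and 0.03 (SE 0.11) and were not called, as was the hinge protein Uqcrh at -0.41 (SE 0.21). Uqcrfs1, the Rieske iron-sulfur protein, lay at 97.55 to 110.8 on all arrays, which is near background.

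Complex IV, cytochrome c oxidase, has subunits that come as tissue isoforms. Of its 12 tested members 3 fell in the same comparison, where 15.2% of all genes did. Cox6a1, the liver isoform whose promoter is printed above, had intensities of 2926, 3774, 4365 and 6966 with EE2 and of 7074 to 7813 in the controls, with a median of 7447, and fell by 0.80 (SE 0.23, adjusted p = 0.0047) without overlap. Cox6b1, which faces the intermembrane space, lay at 3388, 3846, 4816 and 7589 against 7489 to 8410 (median 8198), and fell by 0.79 (SE 0.23, adjusted p = 0.00512). A single EE2 array reached just into the control range for Cox6b1. The muscle isoform Cox6a2 and the testis isoform Cox6b2 were at background in all groups. Cox6c (-0.81), Cox5b (-0.50), Cox4i1 (-0.43) and Cox7a2 (-0.32) were not called.

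Complex V had 7 of 13 tested members that fell at 10 ppm and 7 d, where 15.2% of all genes did, with a median change of -0.49. Atp5g2, a gene for the c subunit of the rotor ring, had intensities of 427.5, 542.2, 598.1 and 786.4 with EE2, all below the controls (858.8 to 1256, median 1009), and fell by 0.80 (SE 0.23, adjusted p = 0.00512). Atp5g3, another gene for the same mature protein, was at 10250, 10730, 11700 and 15530 against 11700 to 14970 (median 13870), and its change of -0.18 (SE 0.13, adjusted p = 0.29) was not called. Atp5d, the delta subunit of the central stalk, lay at 1312, 1555, 1923 and 2963 against 2679 to 3675 (median 3134), and fell by 0.73 (SE 0.16, adjusted p = 0.00018) with 1 overlapping array.

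Atp5b, the catalytic beta subunit, was not called. Its intensities with EE2 at 10 ppm for 7 d were 15860, 16040, 16160 and 17630, inside the control range of 15050 to 17630, and the change was 0.03 (SE 0.06, adjusted p = 0.755). The peripheral stalk members Atp5o (-0.49), Atp5f1 (-0.49) and Atp5j (-0.69), the central stalk Atp5c1 (-0.49) and Atp5j2 (-0.60) fell as well, and the alpha subunit Atp5a1 (-0.18) was not called.

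Of the 4 members that are no subunits, Atp5sl and Cox4nb fell, Atp5s rose and Ndufaf1 (-0.08) was not called. Atp5sl, at chr7:25619414-25625550 on GRCm38.p6 and now named Dmac2, is known from human cells as an assembly factor of complex I. It had intensities of 304.1, 319.1, 333.7 and 346.3 with EE2, below every control (362.6 to 631.8, median 557.1), and fell by 0.67 (SE 0.15, adjusted p = 0.000369). Atp5s, at chr12:69724913-69744665 and now named Dmac2l, is known from cattle as coupling factor B. It was at 280.5, 295.0, 343.3 and 355.2, above every control (222.7 to 259.5, median 238.8), and rose by 0.37 (SE 0.10, adjusted p = 0.00382). Cox4nb fell by 0.36 (SE 0.13, adjusted p = 0.0328) with overlapping arrays.

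**Figure D2:**
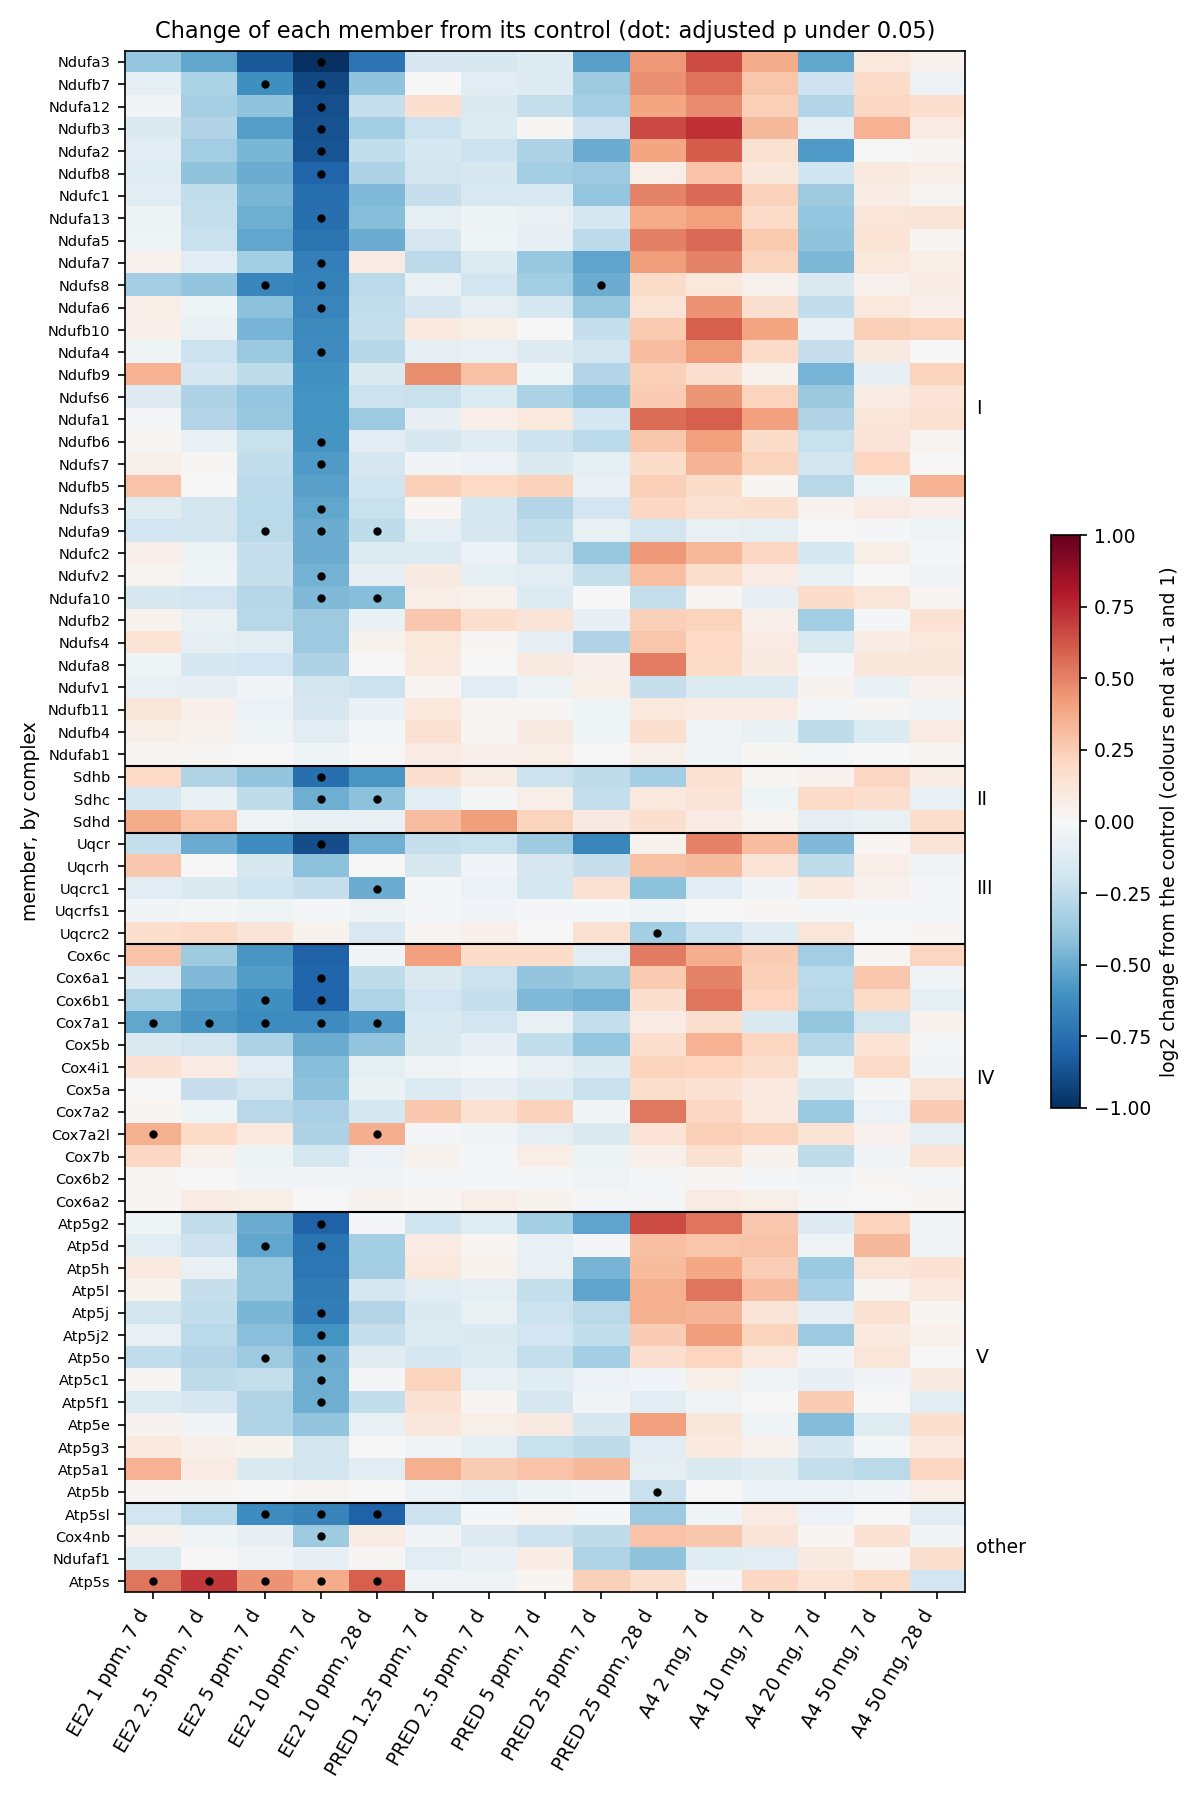
Change of 69 members (rows, grouped by complex) from its control in the 15 comparisons (columns), as log2 change in colour, blue lower and red higher; a dot marks an adjusted p under 0.05. The column for EE2 at 10 ppm and 7 d holds 33 dots, and the A4 columns hold 0.

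The dose series asked how the members followed the EE2 dose at 7 d; all 4 doses share the same 6 control arrays. At 1 ppm, Atp5s and Cox7a2l rose and Cox7a1 fell (Cox7a2l was not called when arrays that share a number in their sample name were blocked or averaged, adjusted p = 0.0565 and 0.0831), where 6.29% of all genes rose and 7.06% fell, and the median change was -0.01 (within chips -0.09 and -0.03). At 2.5 ppm, Atp5s rose and Cox7a1 fell, where 7.58% of all genes rose and 7.02% fell, and the median was -0.15 (within chips -0.25 and -0.10). At 5 ppm, 8 members fell and 1 rose, where 11.6% of all genes fell and 12.8% rose, with a median of -0.28 and 64 of 70 below 0. All 8 were among the 33 that fell at 10 ppm. They were Ndufs8 (-0.65), Atp5sl and Cox7a1 (both -0.63), Ndufb7 and Cox6b1 (both -0.61), Atp5d (-0.52), Atp5o (-0.36) and Ndufa9 (-0.27).

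The count at 5 ppm moved with single arrays, to 4 without replicate 3 of that group and to 15 without its replicate 2. At 5 ppm the array means were 9.75, 10.38, 10.46 and 10.57, so 1 array lay far below the others, and it had the most entries detected of that group, 9282. Within chips the median change was -0.27 and -0.46. The trend was the slope over the controls and the 4 doses as 5 equal steps. It was negative for 66 of 70 members, with 46 significantly negative and 1, that of Atp5s, significantly positive, where 15.2% of all genes fell and 18.7% rose. Its steepest slopes were those of Ndufa3 (-0.25 per dose step, SE 0.08, adjusted p = 0.00797) and Cox6c (-0.25, SE 0.09, adjusted p = 0.0194). Without EE2 10 ppm replicate 4, 28 members had a trend, and with the number of entries detected as a covariate 7 did. In the fit with that covariate 6 members fell, where 9.71% of all genes did, and 1 rose, where 11.6% did.

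Compared directly, EE2 at 10 ppm lay below EE2 at 1 ppm for 68 of 70 members, and 11 fell and 0 rose, where 4.26% of all genes fell and 6.48% rose. Sdhb had the largest of these changes, -0.95 (log2), followed by Ndufa12 at -0.85. A fit of only the compared groups called 0 members, and the chip as a block left 6. Ndufa12 was not called with the chip as a block (adjusted p = 0.0566), nor with name numbers as a block or averaged (0.0536 and 0.0619). Leaving out single arrays changed this count more than any other, from 1 without 1 ppm replicate 2 to 37 without 10 ppm replicate 2. It was 2 without 10 ppm replicate 3 or 4, 3 without 1 ppm replicate 4, 6 without replicate 1 of either group and 22 without 1 ppm replicate 3.

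Cox7a1, at chr7:30184171-30186030, was low from the first dose on. Its control intensities were 150.5 to 205.1 with a median of 174.5. The lowest dose gave 110.5, 113.6, 115.4 and 134.3, and 2.5 ppm gave 104.0, 106.0, 115.6 and 123.9. With 5 ppm the values were 99.87, 107.8, 112.6 and 112.8, and the highest dose gave 102.8, 103.3, 105.7 and 121.3. All 16 treated arrays lay below every control, and from 2.5 ppm on some arrays lay at or below their median entry. It was detected on all 6 controls, on 4 of 4 arrays at 1 ppm, 2 of 4 at 2.5 ppm, 3 of 4 at 5 ppm and 1 of 4 at 10 ppm. The changes were -0.52, -0.58, -0.63 and -0.63 at the 4 doses (SE 0.14 each), with adjusted p-values of 0.00758, 0.00177, 0.000407 and 0.000284. Cox7a1 is a muscle isoform, and of 7 skeletal and cardiac muscle markers 4, Acta1, Ckm, Myh4 and Actc1, were detected on 0 arrays. The summed intensity of the 7 was 669.4 to 688.3 in the 7-day feed controls and 676.9 to 684.6 with EE2 at 10 ppm. Each of the 7 lay near background, with a median intensity between 95.65 and 100.2, so the sum cannot show whether muscle RNA differed.

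**Figure D3:**
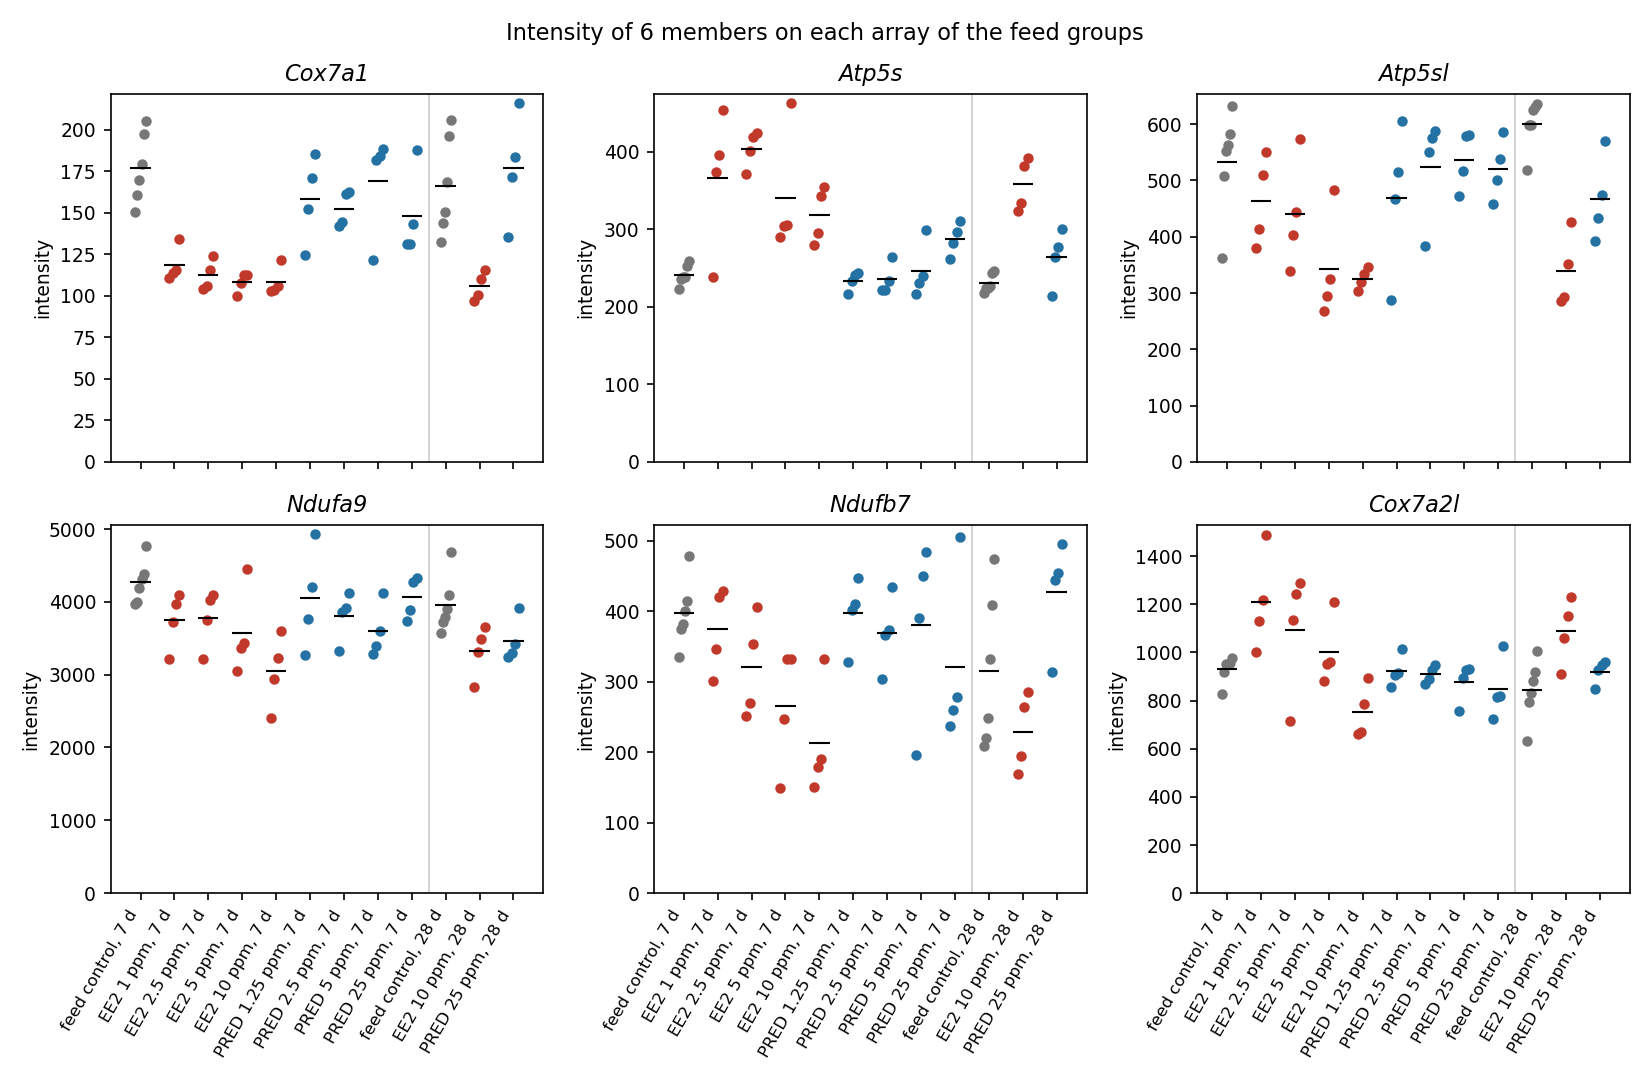
Intensity of Cox7a1, Atp5s, Atp5sl, Ndufa9, Ndufb7 and Cox7a2l on each array of the feed groups (vertical axes from 0); points are arrays and bars are group means. Cox7a1 ran from 150.5 to 205.1 in the 7-day controls, above all 16 arrays of EE2 at 7 d.

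Atp5s ran the other way and was highest at 2.5 ppm, so its positive trend includes the step from the controls and no steady rise over the doses. Intensities with 1 ppm were 239.0, 373.9, 395.9 and 454.4, those with 2.5 ppm were 371.9, 401.7, 419.2 and 424.4, and those with 5 ppm were 290.6, 304.2, 306.0 and 463.0, against 222.7 to 259.5 in the controls. Only 1 EE2 array, at 1 ppm, lay within the control range. The rises were 0.53, 0.71, 0.45 and 0.37 from the lowest dose to the highest (SE 0.10 each), with adjusted p-values of 0.000182, 6.21e-07, 0.000777 and 0.00382.

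After 28 d of EE2 at 10 ppm, 7 members fell and 2 rose, where 13.8% of all genes fell and 14.8% rose, so the members' share of falls was below that of all genes. The median change was -0.19, with 60 of 70 below 0. The falling members included Atp5sl (-0.81), Cox7a1 (-0.57), Uqcrc1 (-0.50), Ndufa10 (-0.42), Sdhc (-0.41) and Ndufa9 (-0.26), and 6 of the 7, all but Uqcrc1, had also fallen at 7 d. The array means were 9.89, 10.07, 10.41 and 10.46 against 10.01 to 10.71 in the 28-day feed controls, whose own spread was wide. Within chips the members' median was -0.57 on 1 chip and 0.20 on another, and all 9 called members kept their direction on both.

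At 28 d, Atp5sl had intensities of 285.4, 293.2, 352.0 and 425.5 with EE2 and of 517.9 to 636.1 in the controls, with a median of 612.2. The fall of 0.81 (SE 0.15, adjusted p = 1.81e-05) came without overlap. Atp5s was at 324.4, 334.3, 382.1 and 391.9, above every control (217.8 to 246.1, median 226.2), and rose by 0.60 (SE 0.10, adjusted p = 6.36e-06). Cox7a1 was again below every control, at 97.11, 100.5, 110.3 and 115.7 against 132.3 to 206.0 (median 159.7). Uqcrc1, the core I protein of complex III, lay at 2536, 3168, 3230 and 3843 against 3241 to 5299 (median 4628), with 1 array inside the control range, and fell by 0.50 (SE 0.15, adjusted p = 0.00764), a call lost with name numbers averaged (adjusted p = 0.062). Its promoter is printed above.

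The 28-day change minus the 7-day change of EE2 at 10 ppm was above 0 for 63 of 70 members, with a median of 0.33, yet 1 member rose, where 1.36% of all genes did. The members' group mean was 10.09 at 7 d and 10.21 at 28 d with EE2. In the feed controls it was 10.58 and 10.40, so the controls moved as well. Of 51 cytosolic ribosomal protein genes, 2 lay below 0 in this difference, with a median of 0.48. Cox7a2l, a factor of respiratory supercomplexes related to Cox7a2, had intensities of 662.0, 671.5, 786.0 and 893.0 at 7 d and of 909.5, 1060, 1151 and 1232 at 28 d. Its controls ran from 826.1 to 976.8 at 7 d and from 633.0 to 1006 at 28 d, so it lay low at 7 d and high at 28 d. The 28-day rise was 0.37 (SE 0.13, adjusted p = 0.0221), the 7-day change -0.31 (SE 0.13, adjusted p = 0.0525), and their difference 0.67 (SE 0.18, adjusted p = 0.0261). That difference was not called without EE2 replicate 3 or 4 at 7 d, without EE2 replicate 1 at 28 d, or without feed control replicate 1 at 28 d, nor with the chip as a block (adjusted p = 0.0506), nor with name numbers as a block or averaged (0.109 and 0.276). The 28-day rise was not called with name numbers as a block or averaged either (0.12 and 0.29).

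PRED changed few members. At 1.25, 2.5 and 5 ppm, 0 members passed the limma test, where 0.0264%, 0% and 0.599% of all genes did, and 0, 0 and 3 had an unadjusted p under 0.05. At 25 ppm for 7 d, the median change was -0.21 with 61 of 70 below 0, and 1 member fell, where 2.72% of all genes did. Within chips the median was 0.12 and -0.24. The member was Ndufs8, at 1896, 1923, 1945 and 2542 against 2665 to 3219 in the controls (median 2910), which fell by 0.50 (SE 0.15, adjusted p = 0.0299) without overlap. The meaning of the numbers in sample names is not given in the labels, and with them as a block or averaged the call was lost (adjusted p = 0.104 and 0.126). It was also lost without feed control replicate 1 or 2 or PRED replicate 2, 3 or 4, and without PRED replicate 1 the count of called members was 2. Ndufs8 was also the member called in the PRED dose trend (-0.13 per step), where 3.23% of all genes fell. Without PRED 5 ppm replicate 1 that trend called 2 members, and without PRED 25 ppm replicate 1 it called 3.

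After 28 d of PRED at 25 ppm the median had the other sign, 0.20 with 53 of 70 above 0, and Uqcrc2 and Atp5b fell, where 5.25% of all genes did. Within chips the median was 0.56 and 0.01, and of these 2 falls 2 and 1 kept their direction. The members' group mean was 10.39 at 7 d and 10.57 at 28 d with PRED, and 10.58 and 10.40 in the feed controls. Against the mean of the 4 control groups, an alternative chosen after seeing the data, the medians were -0.06 at 7 d and 0.14 at 28 d. Atp5b was at 13570, 13830, 15200 and 15600 against 15380 to 18580 (median 16690), and fell by 0.22 (SE 0.06, adjusted p = 0.0124) with 1 overlapping array. Uqcrc2 was at 5484, 5653, 5998 and 6642 against 5948 to 8957 (median 7711), and fell by 0.34 (SE 0.11, adjusted p = 0.0349), also with overlap. Both calls were lost with name numbers as a block (adjusted p = 0.0843 for Atp5b and 0.186 for Uqcrc2) or averaged (0.166 and 0.293), and that of Uqcrc2 also with the chip as a block (0.14). Without PRED replicate 1 or 2 at 28 d, 0 members were called, without PRED replicate 4 or feed control replicate 5 or 6, 1 was, and without feed control replicate 2 or 4, 4 were.

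Between the durations of PRED, Atp5g2 was higher at 28 d, 1 of 70 members, where 0.907% of all genes were. The members' median difference was 0.48, and that of 51 cytosolic ribosomal protein genes was 0.75. Atp5g2 was at 549.7, 646.6, 702.0 and 967.4 at 7 d, against 858.8 to 1256 in its controls. At 28 d it was at 997.4, 1099, 1117 and 1125, against 405.3 to 1109. The 7-day change was -0.53 (SE 0.23, adjusted p = 0.187) and the 28-day change 0.65 (SE 0.23, adjusted p = 0.063). Their difference of 1.18 (SE 0.33) had an adjusted p of 0.0498, just under the threshold. It was not called with the chip as a block (adjusted p = 0.099) or with name numbers as a block or averaged (0.284 and 0.447), and 19 of the 20 fits that left out 1 array moved the count of called members, to between 0 and 5.

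A4 changed 0 members at any of the 4 doses or at 28 d, where 0% of all genes passed in each comparison. The medians were 0.21, 0.11, -0.15 and 0.06 from 2 to 50 mg/kg/day at 7 d and 0.04 at 28 d, in no order of dose. In the same order of groups, 14, 15, 57, 22 and 23 of 70 members lay below 0. At an unadjusted p under 0.05 there were 6, 0, 1, 0 and 0 members. The A4 dose trend and the difference between its durations called 0 members as well, where 0% and 0.00881% of all genes were called, with 2 and 1 at an unadjusted p under 0.05. The controls differed from each other by similar amounts. Gavage controls minus feed controls gave a median of -0.13 at 7 d, with 51 of 70 members below 0 and 8 at an unadjusted p under 0.05. The 28-day minus 7-day feed controls gave -0.20, with 56 of 70 below 0 and 9 at an unadjusted p under 0.05. In both, 0 members passed the adjusted test, where 0% and 1.02% of all genes did, and without 28-day feed control replicate 4 the second count was 2. Gavage minus feed controls at 28 d and 28-day minus 7-day gavage controls both had a median of 0.05, with 0 members called where 0% of all genes were, and 0 at an unadjusted p under 0.05. PRED at 25 ppm minus 1.25 ppm had a median of -0.16, with 0 members called where 1.4% of all genes were, and 3 at an unadjusted p under 0.05.

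EE2 and PRED were fed at matched concentrations at 2.5 and 5 ppm, which gave 2 pairs to compare over 70 members. At 2.5 ppm, Atp5s was higher with EE2 by 0.74 (log2), 1 of 70 members, where 5.78% of all genes were higher. With PRED it was at 221.3, 222.5, 234.0 and 264.5, below all 4 arrays with EE2. At 5 ppm, Atp5s was higher with EE2 by 0.43, and Atp5sl (-0.66), Cox7a1 (-0.56) and Sdhc (-0.31) were lower, where 9.61% of all genes were higher and 8.43% lower. With the chip as a block Sdhc was not called (adjusted p = 0.0565). The count was 7 without PRED 5 ppm replicate 2 and, at 2.5 ppm, 2 without EE2 replicate 4. The median member difference was -0.13 at 2.5 ppm and -0.15 at 5 ppm, but 0.05 and 0.41 on the 1 chip that held both groups.

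The members also varied together among arrays of the same group. Deviations from the group mean, with arrays that share a number in their sample name averaged, left 71 values. Each member's deviation was correlated with the mean of the other members, and r was over 0.8 for 40 of 70 members, while 1.98% of the other genes tested reached 0.8. The trait was not particular to the members, since 24 of 51 cytosolic ribosomal protein genes also had r over 0.8. The median r was 0.821. Ndufb8 (0.958), Uqcrh (0.956) and Ndufa13 (0.952) followed the others most closely. Complex I had 24 of 33 members over 0.8, complex IV 7 of 12, complex V 7 of 13, complex III 2 of 5 and complex II 0 of 3. The 9 members under 0 included Uqcrc1 (-0.515), Uqcrc2 (-0.388), Ndufa10 (-0.221), Atp5s (-0.205) and Atp5b (-0.171). These points share arrays and normalization, and the values are given as a description.

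Across the same 71 values, the members' mean moved with genes outside the chain, in a family of 5 relations. Against the mean of 51 cytosolic ribosomal protein genes, a list chosen after seeing the data, Pearson's r was 0.925 and Spearman's rho 0.878 (permutation p = 1e-05 for both, the smallest the resampling can give, adjusted p = 2.5e-05). Without the 2 farthest values r was 0.908, and within 8 chips it ran from 0.174 to 0.974. For mitochondrial ribosome genes r was 0.936 (rho 0.902, permutation p = 1e-05 for both, adjusted 2.5e-05), 0.92 without the 2 farthest and 0.547 to 0.988 within chips. The number of entries detected had r = -0.569 and rho = -0.508 (permutation p = 0.00013 and 0.00017, adjusted 0.000217 and 0.000283), -0.523 without the 2 farthest, and -0.92 to 0.255 within chips, so that relation did not hold in every chip. Kupffer cell and macrophage markers had r = -0.458 and rho = -0.317 (permutation p = 0.00246 and 0.0223, adjusted 0.00308 and 0.0279), -0.368 without the 2 farthest and -0.945 to 0.531 within chips. Citric acid cycle genes gave r = 0.0465 and rho = -0.0933 (permutation p = 0.759 and 0.499, adjusted 0.759 and 0.499), -0.0225 without the 2 farthest and -0.716 to 0.884 within chips.

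With EE2 the members and the cytosolic ribosomal protein genes parted. The members' mean minus the ribosomal mean was -1.30 to -0.72 on the 20 EE2 arrays, with a median of -1.06, and -0.70 to -0.25 on the other 60, with a median of -0.42. The ranges did not overlap. For the members' mean minus that of the mitochondrial ribosome genes they did overlap. That difference was 0.66 to 1.16 with EE2, with a median of 0.86, and 0.82 to 1.25 on the other 60, with a median of 1.08. Such a difference within an array shows unequal change and not, by itself, which side moved. The members' median change from the controls was -0.01 at 1 ppm, -0.50 at 10 ppm and 7 d and -0.19 at 28 d. That of the ribosomal protein genes was 0.47, 0.11 and 0.57. Of the 51 ribosomal protein genes, 14 rose at 1 ppm, 6 at 2.5 ppm, 11 at 5 ppm, 4 at 10 ppm and 29 at 28 d, where 6.29%, 7.58%, 12.8%, 18.1% and 14.8% of all genes did. None of them, 0 of 51, fell in any of these limma tests, 13 lay below 0 at 10 ppm and 7 d, and their median change ran from 0.11 at 10 ppm and 7 d to 0.57 at 28 d. With the ribosomal mean as a covariate, an alternative chosen after seeing the data, 40, 37, 49 and 56 members fell at 1, 2.5, 5 and 10 ppm and 52 fell at 28 d, where 9.94%, 9.93%, 14.5%, 18% and 15.6% of all genes did. Since some of those genes changed with EE2, this fit compares the members with them and not with a fixed level.

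**Figure D4:**
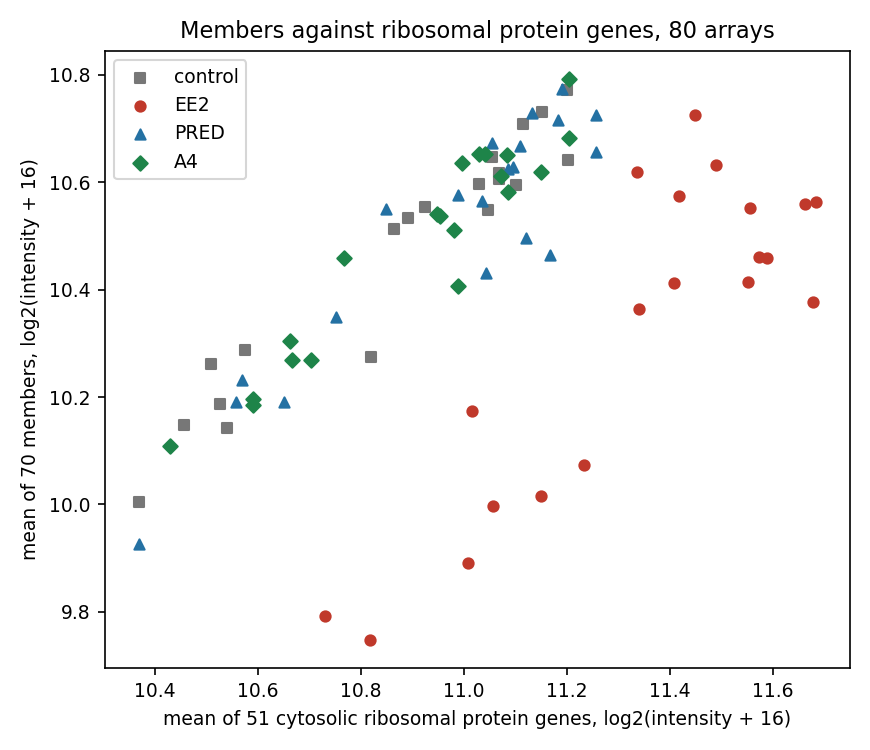
Mean of the 70 members against the mean of 51 cytosolic ribosomal protein genes on each of the 80 arrays, both in log2(intensity + 16), with symbols for control, EE2, PRED and A4 arrays. At a given ribosomal mean the 20 EE2 arrays lie lower than the other 60, although each axis alone overlaps, with member minus ribosomal differences of -1.30 to -0.72 against -0.70 to -0.25.

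Some cell type markers differed with EE2 at 10 ppm as well. Their counts stand beside 18.1% of all genes that rose and 15.2% that fell at 7 d, and 14.8% and 13.8% at 28 d. In lists of 5 or 6 genes, a count of 1 is close to those shares. At 10 ppm, 9 of 10 tested Kupffer cell and macrophage markers rose at 7 d and 9 of 10 at 28 d. Their summed intensity was 5549 to 24523 with EE2 at 7 d against 4566 to 6602 in the controls, and 15756 to 18004 against 3532 to 5776 at 28 d, with Cd5l detected on 0 arrays. The 6 hepatocyte markers summed to 30657 to 37370 with EE2 against 35315 to 40930 at 7 d, and to 31454 to 34903 against 39649 to 44713 at 28 d, and 1 and 3 of them fell. The 5 erythroid markers summed to 1343 to 10816 with EE2 against 10080 to 16343 at 7 d, and to 2525 to 5702 against 6596 to 13738 at 28 d, and 2 and 1 of them fell. Of the brown adipocyte markers, Ucp1 and Plin were detected on 0 arrays and Adipoq on 2, and the sum of 4 was 393.1 to 460.5 against 383.0 to 398.0 at 7 d and 433.2 to 629.8 against 378.5 to 404.8 at 28 d. The 1 tested marker, Cidea, rose both times, but only 11 arrays detected it. It may have passed the detection filter only through groups where it was high, so its rise is no separate sign of that cell type. Of 6 endothelial markers 3 rose at 7 d and 2 at 28 d. The part of these cell types in the members' changes was not tested.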

How the data were processed

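Liver RNA, extracted with Trizol and columns per the labels' protocols, was amplified to biotinylated cRNA and hybridized to Illumina bead arrays. The deposited values are normalized intensities, 1 per entry and array, made by the authors with GenomeStudio, per the submitters' processing notes; how they were normalized, the sources used here do not say, and the sorted intensities are nearly the same on all arrays. A detection p-value per entry was deposited by the authors beside each intensity. Values were turned into log2(intensity + 16) for testing. Groups came from the sample titles. A single model over the 19 groups was fitted with limma 3.58.1 in R 4.3.3 (statmod 1.5.0) to the 11352 genes that 4 or more arrays detected (detection p below 0.05), after 8 array-control entries were left out, and p-values were adjusted over all 11352 with the Benjamini-Hochberg method at a threshold of 0.05. Trends are slopes per step from the controls through the 4 doses. Tables were made with pandas 2.3.3 in Python 3.11.15. The number of arrays limits the precision. On simulated data the fit was tested before use.

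Members and gene lists were chosen with earlier results of these data known. The text names up to 4 rises and 4 falls per top-dose comparison and up to 2 elsewhere, members called in 6 or more of 15 comparisons (there were 0), isoforms of 1 subunit, succinate dehydrogenase subunits, non-subunits, and every member of a count of 5 or fewer. Members named beyond this rule, such as the core subunits of complex I and those of the within-group correlations, were chosen after their values were seen. Alternatives covered the pseudocount, the detection filter, chip and name number as blocks, the samples in the fit, centring, a variance trend, the member list and each array left out. 1 member that the rule would name is not reported here.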

Additional observations from a re-analysis of the deposited data

Results flagged for a closer look

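In 235 sets of values, each from 1 group, the lowest or highest array was compared with the rest; 19 of these were group means of the 70 members and the others came from 24 members in 9 groups each. An array stood far from the others of its group in 16 sets, and chance gives about 1 such set in 20. The mean of the members had a low array with PRED at 1.25 ppm (10.19, log2), PRED at 5 ppm (9.93), in the 7-day feed controls (10.28) and in the 28-day gavage controls (10.14). In the 7-day feed controls, Ndufb8 (4108) and Uqcr (4429) also had a low array. In the 28-day feed controls Atp5sl had a low array (517.9).

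With EE2, a high array stood apart at 10 ppm and 7 d for Sdhb (749.5), Cox7a1 (121.3) and Atp5b (17630) and at 5 ppm for Atp5s (463.0), and a low one for Sdhc at 1 ppm (1078) and Atp5g3 at 2.5 ppm (10730). With PRED, a high array stood apart at 25 ppm and 7 d for Ndufb7 (504.7) and Ndufs8 (2542), and a low one at 28 d for Atp5d (3079).

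The effect of duration was tested in the same fit. Cox7a2l changed differently at 28 d and 7 d of EE2 at 10 ppm, by 0.67 (log2), and Atp5g2 at 28 d and 7 d of PRED at 25 ppm, by 1.18.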

How the results depend on the processing

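Over 34 named changes of 16 members and 808 alternative values, 675 kept their direction and side of the threshold, 133 kept their direction but no longer passed, and 0 turned. Counts of called members moved as follows, the last 3 settings having been chosen after seeing the data; the cause was not tested. Fitting only the groups compared gave 6 (EE2 2.5 ppm, 2 as reported), 4 (5 ppm, 9), 4 (PRED 25 ppm 7 d, 1), 2 (PRED trend, 1), 2 (PRED durations, 1), 2 and 0 (EE2 against PRED at 2.5 and 5 ppm, 1 and 4) and 0 (EE2 10 against 1 ppm, 11). Subunits alone gave 1 at EE2 2.5 ppm, and 0 and 2 for EE2 against PRED; current symbols gave 2 for PRED 25 ppm at 7 d and 2 for its trend. Name numbers as a random block, or averaged, gave 0 for PRED 25 ppm at 7 d and 28 d and for both durations. The chip block gave 1 for PRED at 28 d (2 as reported), 0 for both durations and 6 for EE2 10 against 1 ppm. Without a detection filter there were 1, 0 and 5 for PRED at 28 d, PRED durations and EE2 10 against 1 ppm, and centring gave 0 for PRED durations. The ribosomal covariate gave 42, 39, 51 and 57 from 1 to 10 ppm EE2, 53 at 28 d, 2, 4 and 2 for PRED at 7 d, 28 d and trend, and 0 for both durations. The covariate of entries detected gave 4 at EE2 5 ppm, 7 at 10 ppm, 7 for the EE2 trend, 1 for PRED at 28 d, 2 for its trend and 0 for its durations. All 4 control groups gave 4 at EE2 2.5 ppm and 17 at 28 d. At EE2 10 ppm for 7 d, 26 members fell and 1 rose in that fit, where 17% of all genes fell and 20.3% rose.

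Leaving out single arrays gave 2 to 4 calls (EE2 1 ppm), 2 to 3 (2.5 ppm), 4 to 15 (5 ppm), 17 to 47 (10 ppm), 6 to 10 (28 d), 28 to 50 (EE2 trend), 0 to 2 and 0 to 4 (PRED 7 d and 28 d), 1 to 3 (PRED trend), 0 to 1 and 0 to 5 (EE2 and PRED durations), 1 to 2 and 3 to 7 (EE2 against PRED at 2.5 and 5 ppm), 1 to 37 (EE2 10 against 1 ppm) and 0 to 2 (feed durations). No paired analysis was possible because the groups compared share at most 1 number in their sample names. Cox7a1 after EE2 lay near background, which limits the fall that could be measured.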

Other observations

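Other mitochondrial genes were grouped in lists chosen with results known, and with EE2 at 10 ppm for 7 d their counts stand beside 15.2% of all genes that fell and 18.1% that rose. Of 70 mitochondrial ribosome genes 27 fell and 2 rose (median -0.23), of 29 assembly factors of the complexes 7 fell and 2 rose (median -0.20), and of 14 citric acid cycle genes 3 fell and 0 rose (median -0.06), while of 7 antioxidant genes 0 passed the limma test and 1 had an unadjusted p under 0.05. Of 10 chain genes outside the symbol rule, Cyc1, the cytochrome c1 of complex III, fell by 0.57 (SE 0.13, adjusted p = 0.000439), Etfb fell by 0.60 and Etfdh by 0.44, both carriers of electrons from fatty acid oxidation, and Slc25a5, an ADP/ATP carrier, rose by 0.26. Of 13 regulators, the nuclear receptor gene Esrra fell by 0.56 (SE 0.14, adjusted p = 0.00154), the deacetylase gene Sirt3 by 0.75 (SE 0.21, adjusted p = 0.00392) and Gabpb1 by 0.12, and Polrmt, the mitochondrial RNA polymerase, rose by 0.35.

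After 28 d of EE2, 6 of 14 citric acid cycle genes fell (median -0.33), against 3 at 7 d, where 13.8% of all genes fell. Of 70 mitochondrial ribosome genes 10 rose, close to the 14.8% of all genes, and 6 fell. Of the regulators, Ppargc1a (-0.58), Ppargc1b (-0.69), Esrra (-0.66), Sirt3 (-0.65) and Gabpb1 (-0.12) fell and 0 rose. At 1 ppm for 7 d, Ppargc1a had instead risen by 0.73 (SE 0.21, adjusted p = 0.013), where 6.29% of all genes rose. It was at 0.55, 0.37 and -0.09 at 2.5, 5 and 10 ppm for 7 d and was not called. Gabpa rose by 0.06 at 5 ppm (adjusted p = 0.0401), where 12.8% of all genes rose.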
